A study of Oryza sativa Japonica Group with 8 samples.

Results

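Salicylate signalling was followed through 8 rice genes, which were 3 NPR genes (NPR1, NPR2 and NPR3), the bZIP factor gene TGA2.1, the WRKY factor genes WRKY45 and WRKY13, and the defence regulators EDS1 and PAD4. The genes were chosen by locus identifier, and every non-control probe whose name begins with 1 of the 8 identifiers was taken. This gave 17 of the 42477 non-control probes on the array and 8 of the 29690 loci with a probe. All 17 probes were well above background on all 8 arrays, so all 8 genes passed the filter on low signal that left 21543 genes in the test. The names NPR1, NPR2, NPR3 and TGA2.1 were found in the reference gene table. WRKY45, WRKY13, EDS1 and PAD4 are the names that came with the locus list, and the reference did not hold them.

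The plants were rice of the cultivar Hinohikari, grown at 25 ºC to the five-leaf stage, and the tissue was the blade of the fifth leaf. The linalool group was treated with 10 µM linalool, a monoterpene alcohol that plants release as a scent, for 1 day at 25 ºC. The control was sampled after 24 h and is called mock here, although some labels call it mock-treated and others untreated. Each group held 4 arrays, and each array carried RNA from a pool of at least 3 plants.

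Salicylate is a plant hormone of defence against pathogens. In Arabidopsis it acts through NPR proteins, which have no DNA-binding domain of their own and work on genes through TGA-type bZIP factors, while the lipase-like proteins EDS1 and PAD4 pair with each other and promote salicylate build-up. Rice leaves hold much salicylate without infection, and in rice the signal is known to run through an NPR1 branch and a WRKY45 branch.

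Array levels are given as log2 of the background-corrected signal relative to the 75th percentile of the same array, and differences as linalool minus mock on the log2 scale. The array places the probes over the coding sequence and 3′ UTR, except for 1 WRKY13 probe over the 5′ UTR and coding sequence and for the PAD4 probe, which has no such entry. Each gene is represented by its brightest tested probe, and a change was called at a Benjamini-Hochberg adjusted p below 0.05 over all probes in limma. That percentile ran from 849.6 to 999.6 signal units in the mock group and from 1092 to 1605 in the linalool group. Each group was hybridised on a slide of its own, so a slide effect and the treatment cannot be told apart, and p-values measure the spread between these pools only. In whole leaf blades, fewer cells of a type and less RNA per cell cannot be told apart. Probes of the 5 loci used as leaf blade markers were well above background on every array. Their levels of 7.50 to 9.24 in mock blades were 1.25 to 3.95 lower after linalool, and the part of this shift in the results was not tested. No probe of the root and anther loci was well above background on all arrays, nor was any of 1 seed locus. The other seed locus, Os10g0400200, was above background on every array.

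The 8 genes did not move as a block. WRKY45, WRKY13 and PAD4 were higher after linalool and NPR2 and EDS1 lower, EDS1 with the opposite sign when arrays were scaled on spike-in probes. NPR1, NPR3 and TGA2.1 did not pass the test. The 5 called genes were 62.5% of the 8, against 67.4% of the 21543 genes tested. The 3 that were higher stood against a background of 28.9% of genes, and the 2 that were lower against 38.5%. A change of at least 2-fold was called for WRKY45, WRKY13 and NPR2, 3 of 8, where 29.4% of all genes passed that rule. Mock and linalool arrays did not overlap for NPR2, WRKY13 and PAD4, again 3 of 8, where 63.4% of all genes showed no overlap. By probe, 9 of the 17 passed, against 67.3% of all probes tested. Read against the background, none of these counts is a result about the 8 genes in particular. The median absolute difference of the 8 genes was 0.49, against 0.58 over all genes.

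**Figure D1:**
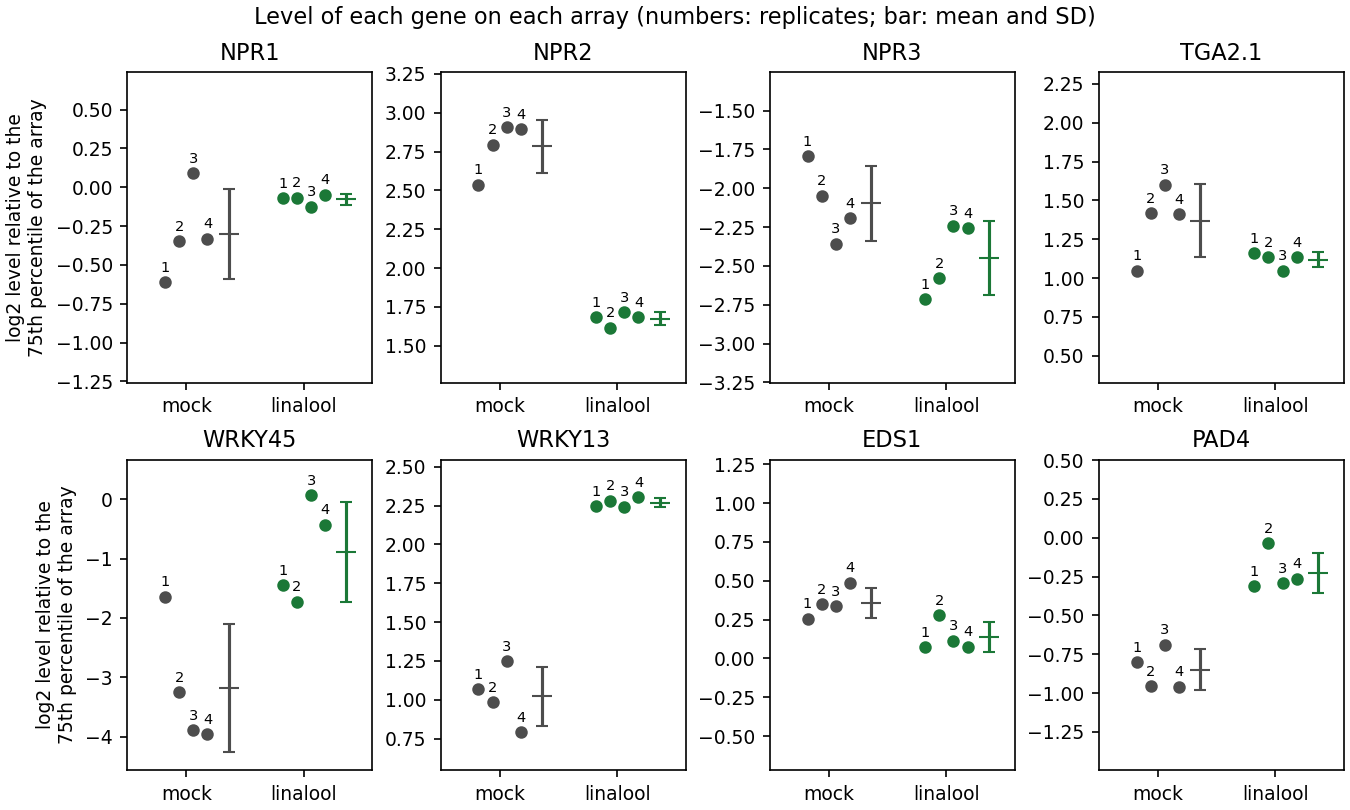
Level of each of the 8 genes on each array, with 1 panel a gene, on a log2 axis relative to the array's 75th percentile; points are arrays with their replicate number, and the bar beside them is the mean with its SD (n = 4). The mock and linalool points are apart for NPR2, WRKY13 and PAD4 and overlap for the other genes.

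The NPR genes encode the co-regulators of the pathway. NPR2 was 2.16-fold lower after linalool, while NPR1 and NPR3 were not called in either direction. NPR1 is known in rice as a positive regulator of resistance to bacterial blight, while the roles of NPR2 and NPR3 in rice are less well described.

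NPR2 (Os01g0767900) was read by a single probe. Its level was 2.54, 2.80, 2.91 and 2.89 on the mock arrays and 1.68, 1.62, 1.71 and 1.69 on the linalool arrays. Every linalool array lay below every mock array, and the linalool arrays lay within a narrow band. The mean fell from 2.78 ± 0.17 to 1.68 ± 0.042 (SD, n = 4), a difference of -1.11 (SE 0.10, 95% interval -1.33 to -0.88, limma adjusted p = 2.68e-05). The two-sided exact permutation test gave p = 0.0286, the smallest value that the 70 splits of 8 arrays allow.

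NPR1 (Os01g0194300) had a level of -0.61, -0.35, 0.091 and -0.33 on the mock arrays and of -0.072, -0.067, -0.13 and -0.049 on the linalool arrays. The linalool arrays were nearly equal and lay within the mock range, in which mock replicate 1 was low and mock replicate 3 high. The means were -0.30 ± 0.29 and -0.078 ± 0.033 (SD, n = 4), and the difference of 0.22 (95% interval -0.10 to 0.54) did not pass (limma adjusted p = 0.192). Without mock replicate 3 the difference was 0.35 and passed (limma adjusted p = 0.0135). The second NPR1 probe, of cDNA AY323485, differed by 0.35 (95% interval -0.045 to 0.74, limma adjusted p = 0.103).

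NPR3 (Os03g0667100) had a level of -1.79, -2.05, -2.36 and -2.19 on the mock arrays and of -2.71, -2.58, -2.24 and -2.26 on the linalool arrays. The groups overlapped, since linalool replicates 3 and 4 lay among the mock arrays and linalool replicates 1 and 2 below them. The difference was -0.35 (95% interval -0.71 to 0.011, limma adjusted p = 0.0788), and without mock replicate 3 it was -0.44 and passed (limma adjusted p = 0.0429). With normexp background correction it was -0.057 (limma adjusted p = 0.976). The other NPR3 probes, of cDNAs AK101223 and AK065363, gave -0.55 (limma adjusted p = 0.118) and -0.57 (limma adjusted p = 0.11), the latter with the opposite sign under normexp (0.018). The signal of the AK065363 probe was low, at 15.7 to 37.4 units. A further name column of the array assigns the AK101223 probe to another locus, so its value is uncertain for NPR3.

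Because NPR1 and NPR2 were read on the same arrays, the gap between their log2 levels needs no scaling between arrays. This comparison and the others made within arrays were chosen after the values had been seen, so their p-values are no separate support. Centred on its mean over the 8 arrays, the level of NPR2 minus NPR1 was 0.73, 0.72, 0.40 and 0.81 on the mock arrays and -0.66, -0.73, -0.58 and -0.68 on the linalool arrays. The groups did not overlap. NPR2 fell by 1.33 relative to NPR1, which is 2.51-fold (two-sided exact permutation p = 0.0286, adjusted over 4 such comparisons 0.0381).

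TGA2.1 (Os07g0687700) encodes a TGA-type bZIP factor that binds NPR1 and is known in rice as a negative regulator of resistance to bacterial blight. Its difference did not pass the test. The level was 1.05, 1.42, 1.60 and 1.41 on the mock arrays and 1.16, 1.13, 1.05 and 1.13 on the linalool arrays. Mock replicate 1 lay with the linalool arrays and the other mock arrays above them. The difference was -0.25 (95% interval -0.53 to 0.023, limma adjusted p = 0.0935), and the second probe, of cDNA AK100440, gave -0.28 (limma adjusted p = 0.0721). Without mock replicate 1 the difference was -0.36 and passed (limma adjusted p = 0.00558).

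The 2 WRKY genes were both higher after linalool, WRKY45 by 4.93-fold and WRKY13 by 2.37-fold. WRKY45 is known in rice as a transcription factor needed for the blast resistance that chemical salicylate analogues induce, and WRKY13 as a factor that favours salicylate over jasmonate responses. They differed in their spread between pools. The linalool arrays were nearly equal for WRKY13 (SD 0.029) and widely spread for WRKY45 (SD 0.84). The WRKY45 mock arrays were widely spread too (SD 1.08), so the spread was not particular to the linalool group.

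WRKY45 (Os05g0322900) had a level of -1.64, -3.25, -3.89 and -3.96 on the mock arrays and of -1.45, -1.72, 0.066 and -0.43 on the linalool arrays. Mock replicate 1 was at the level of linalool replicates 1 and 2, and linalool replicates 3 and 4 were higher still. The means were -3.19 ± 1.08 and -0.88 ± 0.84 (SD, n = 4). The difference was 2.30 (SE 0.59, 95% interval 0.95 to 3.65, limma adjusted p = 0.00813), and the interval of the fold ran from 1.93 to 12.6. Since linalool replicate 2 lay below mock replicate 1, the two-sided exact permutation test gave p = 0.0571. The difference was 1.99 to 2.82 when each array was left out in turn and passed limma each time.

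The gene carried 4 probes, of which the 3 brightest moved together. The probe of cDNA AK066255 rose by 2.21 (limma adjusted p = 0.0117) and that of cDNA AK105939 by 2.21 (limma adjusted p = 0.00716). The dimmest, of cDNA AK063697, is assigned by the array to a transcript numbered 3, apart from transcript 1 of AK103959 and AK105939.

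The AK063697 probe had a level of -3.35, -4.42, -5.47 and -5.61 on the mock arrays and of -4.69, -4.57, -4.52 and -4.32 on the linalool arrays. In mock blades it followed the same course as the other WRKY45 probes, with mock replicate 1 highest, whereas the linalool arrays lay within the mock range. Its difference was 0.19 (95% interval -0.87 to 1.25, limma adjusted p = 0.731), and its signal of 19.4 to 85.4 units was low. Relative to the brightest WRKY45 probe it fell by 2.11, or 4.33-fold, with no overlap between groups (two-sided exact permutation p = 0.0286, adjusted over 4 comparisons within arrays 0.0381). The part of the low signal in this gap was not tested.

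**Figure D2:**
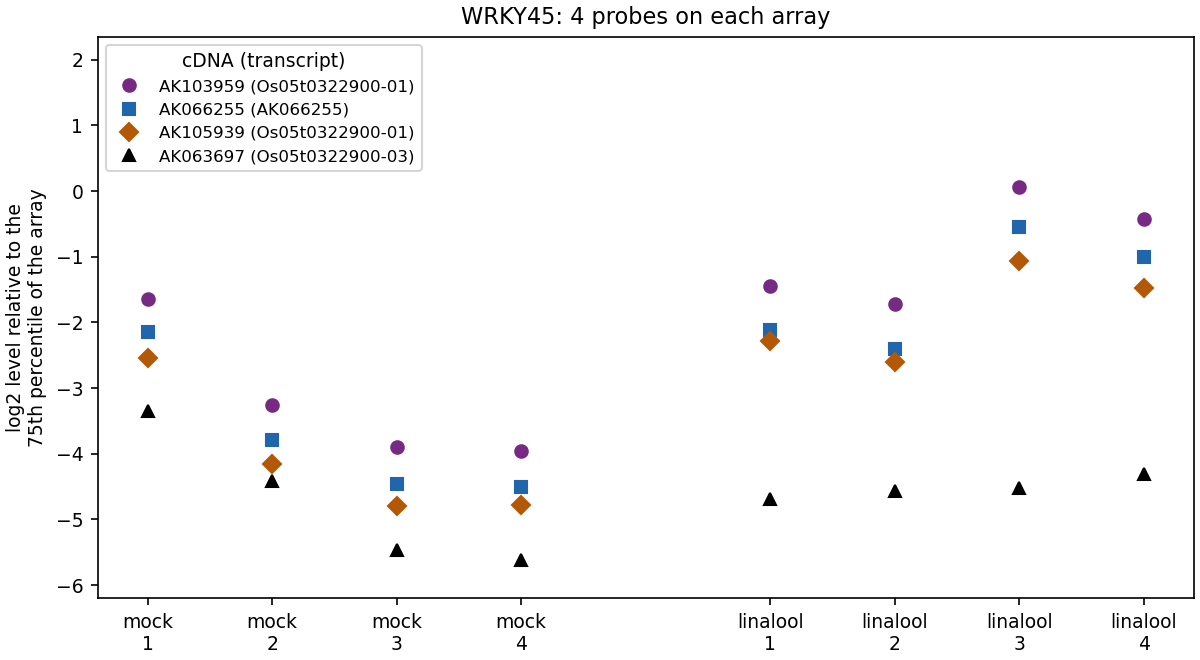
Level of WRKY45 on each array for its 4 probes, on a log2 axis relative to the array's 75th percentile; each marker is 1 probe on 1 array, and the legend gives the cDNA and transcript that the array assigns to the probe. The AK063697 probe lies between -4.69 and -4.32 on the linalool arrays, where the AK103959 probe lies between -1.72 and 0.066.

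WRKY13 (Os01g0750100) had a level of 1.07, 0.98, 1.25 and 0.79 on the mock arrays and of 2.25, 2.28, 2.24 and 2.30 on the linalool arrays. All linalool arrays lay above all mock arrays. The mean rose from 1.02 ± 0.19 to 2.27 ± 0.029 (SD, n = 4), a difference of 1.25 (SE 0.10, 95% interval 1.01 to 1.48, limma adjusted p = 1.96e-05, two-sided exact permutation p = 0.0286).

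The other WRKY13 probes rose too. That of cDNA AK060018 rose by 0.91 (limma adjusted p = 5.3e-05), and that of cDNA AK099515, which the array places over the 5′ UTR and coding sequence of transcript 2, by 0.84 (limma adjusted p = 4.64e-05). The gap between WRKY45 and WRKY13 on the same array overlapped between groups (difference 1.06, two-sided exact permutation p = 0.171), so a larger change of WRKY45 than of WRKY13 was not shown.

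EDS1 and PAD4 encode the lipase-like partners upstream of salicylate in Arabidopsis. In these blades their transcripts did not move together: PAD4 was 1.54-fold higher after linalool, while EDS1 was 1.17-fold lower, at the edge of the threshold and with the opposite sign under scaling on the spike-in probes. In rice, PAD4 has been tied to jasmonate-dependent resistance to bacterial blight.

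PAD4 (Os11g0195500) had a level of -0.80, -0.96, -0.69 and -0.96 on the mock arrays and of -0.31, -0.034, -0.29 and -0.26 on the linalool arrays. All linalool arrays lay above all mock arrays. The mean rose from -0.85 ± 0.13 to -0.23 ± 0.13 (SD, n = 4), a difference of 0.63 (SE 0.10, 95% interval 0.39 to 0.86, limma adjusted p = 0.000711, two-sided exact permutation p = 0.0286). A single probe, designed on an expressed sequence tag, read this gene. It is named for the sequence CI145996, while a further name column of the array gives CI345113 and no locus identifier. That column could therefore not be used to check its locus.

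EDS1 (Os09g0392100), also read by a single probe, had a level of 0.26, 0.35, 0.34 and 0.49 on the mock arrays and of 0.074, 0.28, 0.11 and 0.077 on the linalool arrays. Only linalool replicate 2 reached into the mock range, just above mock replicate 1. The means were 0.36 ± 0.10 and 0.14 ± 0.10 (SD, n = 4), a difference of -0.22 (95% interval -0.42 to -0.025, limma adjusted p = 0.0472). The two-sided exact permutation test gave p = 0.0571. The call held in 4 of 17 other settings, with adjusted p from 0.0295 to 0.474, and it was lost without linalool replicate 1, 3 or 4 and without mock replicate 2, 3 or 4.

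Within arrays the gap between the partners differed between groups, in a comparison chosen after the values had been seen. Centred on its mean, EDS1 minus PAD4 was 0.27, 0.52, 0.24 and 0.66 on the mock arrays and -0.40, -0.47, -0.38 and -0.44 on the linalool arrays. The groups did not overlap, and EDS1 fell by 0.85 relative to PAD4, or 1.80-fold (two-sided exact permutation p = 0.0286, adjusted over 4 comparisons within arrays 0.0381). The level of each gene on its own rests on the scaling, but this gap does not.

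**Figure D3:**
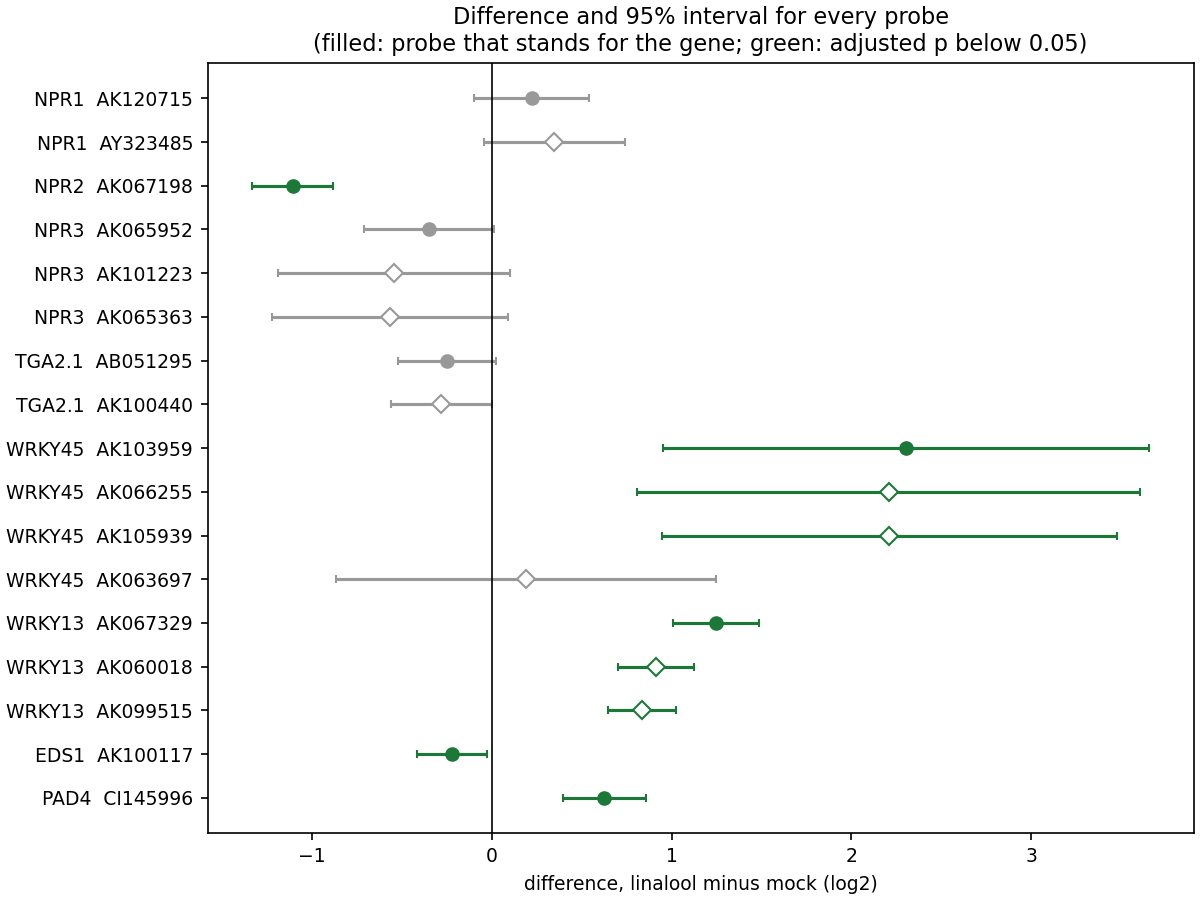
Difference between linalool and mock with its 95% interval for all 17 probes, on a log2 axis; filled circles are the probes that stand for the genes, open diamonds the others, and green marks an adjusted p below 0.05. The 3 WRKY13 probes, the NPR2 probe and the PAD4 probe have narrow intervals clear of 0, and the AK063697 probe of WRKY45 spans 0.

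The directions of the smaller differences depended on how the arrays were scaled. When the arrays were scaled on the measured spike-in probes instead of the 75th percentile, the median gene moved up by 0.64, and 77.0% of called probes were higher after linalool instead of 42.2%. On that scale the differences of NPR3 (0.29), TGA2.1 (0.39) and EDS1 (0.42) had the opposite sign and did not pass (limma adjusted p 0.261, 0.0634 and 0.0562). NPR1 rose by 0.86 and passed (limma adjusted p = 0.00145), against a background of 69.2% of genes called.

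WRKY45 (2.94), WRKY13 (1.89) and PAD4 (1.27) remained higher on the spike-in scale, and NPR2 remained lower at -0.47 (limma adjusted p = 0.0304). These 4 genes passed limma with the same sign in all 17 settings other than the one reported. Relative to the median gene on the same scale, NPR1, TGA2.1, NPR3 and EDS1 kept their places, since the scaling moves all genes of an array alike.

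**Figure D4:**
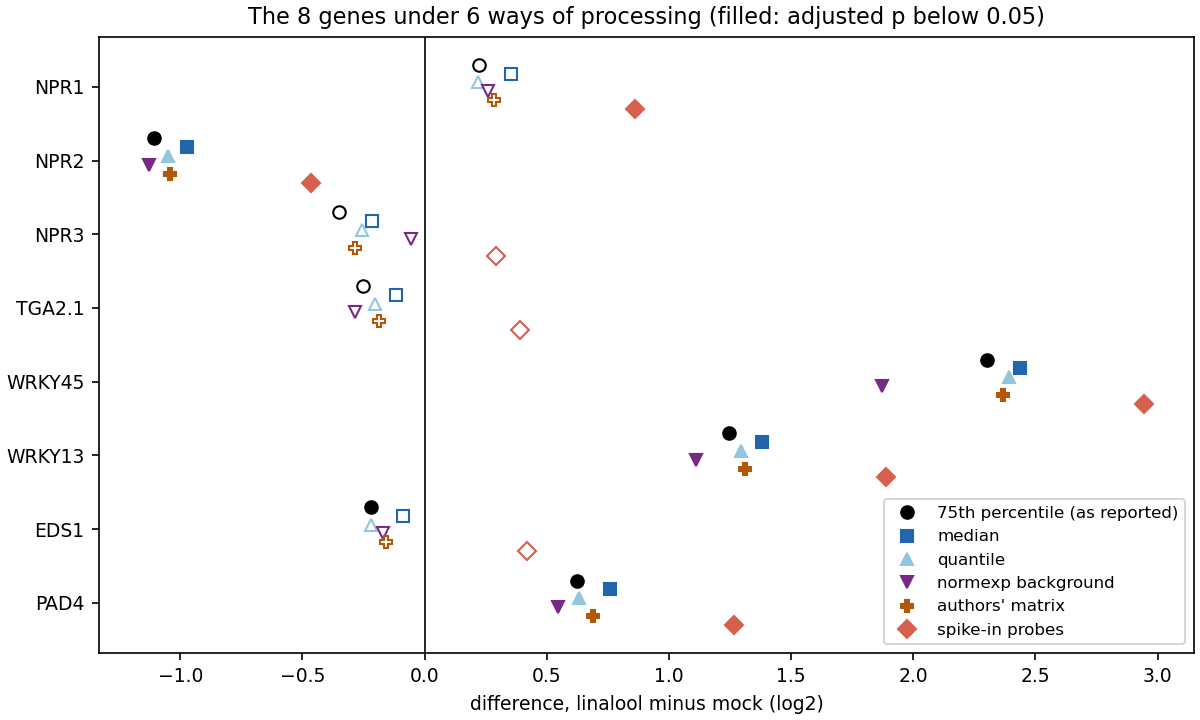
Difference between linalool and mock of the 8 genes under 6 ways of processing, on a log2 axis; each marker is 1 gene under 1 way, filled where the adjusted p is below 0.05. WRKY45, WRKY13 and PAD4 stay right of 0 and NPR2 left of 0, while NPR3, TGA2.1 and EDS1 cross 0 with scaling on the spike-in probes.

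The 8 genes also differed in their spread between pools. By the brightest probe, the SD over the mock arrays was larger than over the linalool arrays for 8 of 8 genes, against 57.4% of all genes. For NPR3, EDS1 and PAD4 the SDs were nearly equal. The WRKY13 probe of AK099515 (SD 0.083 mock, 0.094 linalool) and the NPR3 probe of AK101223 (SD 0.29 mock, 0.57 linalool) went the other way, so the count depends on the probe. Mock replicate 1 was the highest or lowest mock array for 6 of the 8, near the 67.8% of all genes. It was highest for WRKY45 and NPR3 and lowest for NPR1, NPR2, TGA2.1 and EDS1. Mock replicate 3 was also the highest or lowest for 6 of the 8, against 59.3% of all genes. Linalool replicates 3 and 4 both lay above replicates 1 and 2 for 3 of the 8 genes and for 27.8% of all genes. Both lay below them for 0 of the 8 genes and for 36.4% of all genes.

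Genes with a similar course over the 8 arrays were looked for among the 21515 others, by the root mean square difference between levels centred on each gene's own mean. The course of WRKY45 was the least shared, with 0 genes within 0.2 and Os07g0592600 (0.227), Os05g0588900 (0.245) and Os01g0840100 (0.308) as the nearest. NPR2 had 633 genes within that distance, led by Os03g0186500 (0.0458), and WRKY13 had 538, led by Os12g0163600 (0.0608). The nearest to PAD4 was Os09g0251800 (0.0626), to NPR1 Os06g0706400 (0.0528) and to NPR3 Os08g0202200 (0.0592). The nearest to TGA2.1 was Os05g0468700 (0.0404) and to EDS1 Os02g0781800 (0.0371). The size of the change sets much of this distance, since a gene that changed little is near many others that changed little.

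Of the 33 further loci listed for the salicylate pathway, 27 were tested. After linalool 10 were higher, 7 were lower and 10 did not pass, which is 63.0% called against 67.4% of all genes (28.9% higher and 38.5% lower). Their median difference was 0.28, against -0.10 over all genes. With scaling on the spike-in probes 19 of the 27 rose and 2 fell, where 54.0% of all genes rose and 15.2% fell. With normexp background correction 7 of the 27 passed, where 26.9% of all genes did. The lists are small, and their counts by direction moved with the scaling, so each is given on both scales and read against these shares. Only names borne out by the reference are printed, and the assignment of loci to lists rests on general knowledge of rice locus names.

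Among relatives and partners of NPR, 0 of 3 tested loci rose and 2 fell, where 28.9% of all genes rose and 38.5% fell. On the spike-in scale 1 rose and 0 fell, where 54.0% of all genes rose and 15.2% fell. NH4 (Os01g0948900), an NPR1 homologue, was at -1.54, -1.21, -0.997 and -1.07 on the mock arrays and at -2.33, -1.89, -2.23 and -2.33 on the linalool arrays. All its linalool arrays lay below the mock arrays, with a difference of -0.99 (limma adjusted p = 0.000532), which on the spike-in scale was -0.35 and did not pass (limma adjusted p = 0.173).

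Of the 6 other TGA-type bZIP genes, 2 rose, 1 fell and 3 did not pass, against the same shares of all genes, and on the spike-in scale 4 rose and 0 fell (54.0% and 15.2% of all genes). With normexp background correction 0 of the 6 rose and 0 fell, where 26.9% of all genes were called. TGA2.2 (Os03g0318600), a bZIP factor gene related to TGA2.1, rose by 0.48 (limma adjusted p = 0.00753), and with normexp it differed by 0.43 (limma adjusted p = 0.0596). OsbZIP08 rose by 0.28 (limma adjusted p = 0.0491), although 1 of its 2 other probes had the opposite sign. OsbZIP37 was lower, at -0.59 (limma adjusted p = 0.00286), but on the spike-in scale it stood at 0.048 and did not pass.

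The list of targets of WRKY45 and WRKY13 held 4 tested loci, of which 2 rose, 1 fell and 1 did not pass (28.9% and 38.5% of all genes rose and fell). On the spike-in scale 3 rose and 0 fell (54.0% and 15.2% of all genes). OsNAC4 (Os01g0816100), a NAC factor known in rice to promote hypersensitive cell death, was at -2.46, -1.89, -1.99 and -2.26 on the mock arrays and at 2.11, 2.31, 2.62 and 2.50 on the linalool arrays. Its groups lay far apart, with a difference of 4.54 (23.2-fold, limma adjusted p = 3.61e-07). WRKY62 (Os09g0417800), which is known in rice to dampen receptor-mediated immunity, was well above background on 0 mock arrays and on 4 linalool arrays. It entered the test only through the group where it was high, so its call among the 2 that rose is no separate support. Its fitted difference was 4.04 (limma adjusted p = 0.000329), which rests on mock values below that level. With each mock value raised to the lowest level that was well above background on its array, WRKY62 was 5.12-fold higher after linalool. That fold depends on the lowest signal taken as measurable and is not a strict lower bound. With normexp background correction WRKY62 differed by 1.23 and did not pass (limma adjusted p = 0.161).

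Among the 6 tested loci listed for salicylate synthesis, 3 rose, 2 fell and 1 did not pass, with differences from -3.16 to 3.81, where 28.9% of all genes rose and 38.5% fell. On the spike-in scale 4 rose and 2 fell (54.0% and 15.2% of all genes). Of the 2 that fell, Os09g0361500 was well above background on all 8 arrays. Its difference was -3.16 (limma adjusted p = 0.00046), with no overlap between groups. On the spike-in scale it was -2.52 (limma adjusted p = 0.000242), and with normexp background correction -2.27 (limma adjusted p = 0.0246). The other, Os05g0427400, was well above background on only 1 linalool array. With normexp background correction it differed by -0.34 instead of -2.06 and did not pass (limma adjusted p = 0.897). The 1 tested locus listed for conjugation and methylation, Os09g0518200, rose by 2.62 (limma adjusted p = 3.46e-05), and on the spike-in scale by 3.26 (limma adjusted p = 8.75e-07). Of the 5 listed kinases and phosphatases of WRKY45, 2 rose and 1 fell, where 28.9% of all genes rose and 38.5% fell. On the spike-in scale 4 of them rose and 0 fell (54.0% and 15.2% of all genes). MPK1 (Os06g0154500), a mitogen-activated protein kinase of that list, differed by 0.061 (limma adjusted p = 0.599), and its 3 other probes had the opposite sign. On the spike-in scale MPK1 differed by 0.70 and passed (limma adjusted p = 0.00305).

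RAR1 and SGT1, which encode co-chaperones of immune receptors, differed by -0.067 (limma adjusted p = 0.446) and 0.21 (limma adjusted p = 0.397), and neither passed. On the spike-in scale, where 54.0% of all genes rose, both were higher and passed, RAR1 with the opposite sign (0.57) and SGT1 at 0.85.

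**Figure D5:**
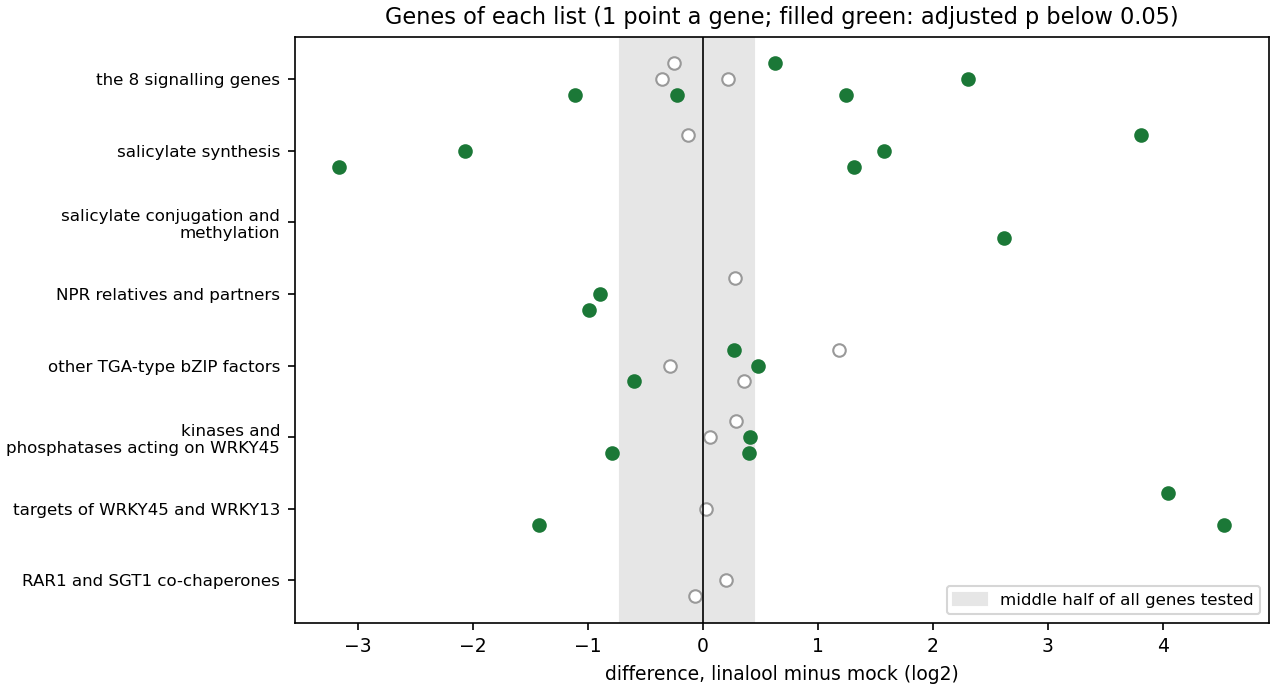
Difference between linalool and mock for the 8 genes and for each list of further salicylate pathway genes, on a log2 axis; each point is 1 gene, filled green where the adjusted p is below 0.05, and the grey band spans the quartiles of all genes tested (-0.72 to 0.44). The lists for synthesis and for WRKY targets hold genes far to both sides of the band. WRKY62 is drawn at its fitted difference, although its mock values were not well above background.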

How the data were processed

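Per the labels' protocols, Trizol-extracted total RNA was labelled with Cy3 in a single colour. The software was Agilent Feature Extraction 10.7.3.1, per the file headers. Its processed signal, a deposited intensity with the background already taken off, was used here. Over the brighter spots, where this was checked, the authors' deposited matrix held the same intensity times 1 constant per array (1.37 to 2.51). Its column medians were 298.9 to 339.8, and the rule for the constant was not given in the sources used here.

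Signals were taken to log2 and reduced by the array's 75th percentile. Between 4 and 17 spots an array were marked non-uniform and dropped, and the remaining spots of each probe were averaged. The 33124 probes well above background on at least 4 of 8 arrays entered 1 linear model per probe (limma 3.58.1, R 4.3.3, with eBayes), p-values were adjusted over all of them by Benjamini-Hochberg, and 22306 passed. A probe with several spots counted as above background where any unmarked spot was, a reading chosen with an earlier count of these data in view. The array names 1358 probes for more than 1 locus, and these were kept out of counts of genes. Exact permutation tests over the 8 arrays were two-sided.

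The members and the pathway lists were chosen with earlier results of these data known. Named are all members, up to 3 genes with a reference name per pathway list by smallest p, and the 3 nearest profiles of a member or the first of them. A few unnamed loci were given after their values were seen. Of the 8 member names 4, and of the 33 pathway names 14, were found in the reference assembly ASM3414082v1 in keeping with their locus identifiers. Its build is not that of the array, so no coordinates are given, and no sequences were used here.

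The test was tried on simulated data of 33087 probes. It called 17 of 67 probes changed by 0.5 on the log2 scale, 46 of 67 changed by 1 and 61 of 66 changed by 2. Of the unchanged probes, 9 were called. Few probes were changed in the simulation, whereas 67.3% of all tested probes passed in the data. These rates therefore do not give the rates of the linalool comparison. The 4 arrays per group limit the precision. Alternatives in scaling, background correction, filter, values, test and replicates were run.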

Additional observations from a re-analysis of the deposited data

How the results depend on the processing

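Of the 8 genes, 4 to 6 passed in the 17 alternatives run with limma, NPR2, WRKY45, WRKY13 and PAD4 in each of them. Of all genes, 62.1% to 69.2% were called where this was counted, apart from 26.9% with normexp background correction. The exact permutation test passed 3 (NPR2, WRKY13 and PAD4), a count added after seeing the data. These are the 3 without overlap between groups, where 63.4% of all genes showed no overlap. EDS1 was no longer called with median scaling (-0.087), without the signal filter (-0.22), with normexp background correction (-0.17), with quantile normalisation (-0.22), with the replicate block (-0.22), with the deposited matrix (-0.16) or by the exact permutation test (-0.22, p = 0.0571), and its sign turned with scaling on the spike-in probes (0.42). That scaling also turned NPR3 (0.29) and TGA2.1 (0.39) and brought NPR1 past the threshold (0.86). The exact permutation test left WRKY45 (2.30) at p = 0.0571. With normexp, 9360 probes and 7 of the 27 other pathway genes passed, instead of 22306 and 17, while 4 of the 8 genes did, against 26.9% of all genes. With no filter 34.0% of called probes were higher, against 50.6% with normexp, 50.8% with median scaling and 49.9% with quantile normalisation. The median gene moved by 0.13 with median scaling, 0.13 with normexp, 0.12 with quantile normalisation and -0.19 without the filter. Leaving out each array in turn gave 4 to 6 of the 8 genes (62.1% to 67.7% of all genes), 16 to 19 other pathway genes and 20505 to 22448 probes. The difference then ran from -0.27 to -0.18 for EDS1, 0.12 to 0.35 for NPR1, -1.19 to -1.07 for NPR2, -0.44 to -0.25 for NPR3, 0.56 to 0.68 for PAD4, -0.36 to -0.17 for TGA2.1, 1.17 to 1.32 for WRKY13 and 1.99 to 2.82 for WRKY45. The cause of these changes was not tested. Arrays of the same replicate number showed no steady shared deviation (correlations -0.0035, 0.17, 0.11 and -0.11 over 33087 probes). With 4 arrays per group on separate slides, these values cannot settle whether the pools were paired. With the replicate block 4 of the 8 genes, 17 other pathway genes and 21250 probes passed, where 64.2% of all genes did. A slide block was not run because 0 slides hold both groups. Signals near background, such as 15.7 units for 1 NPR3 probe and 19.4 units for 1 WRKY45 probe, limit what can be said of single dim probes.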
